A study of Mus musculus with 10 samples.

Results

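Fshb, Cga, Gnrhr, Nr5a1, Foxl2 and Gata2 are the mRNAs of the pituitary gonadotrope examined here: a hormone, its shared subunit, the receptor that drives its release and transcription factors of the cell. They were chosen by gene symbol, with earlier results of these data known. Each symbol was matched to 1 Ensembl gene, giving 6 of the 55416 genes in the table and 6 of the 20550 with enough counts to be tested. RNA bound to the RNA-binding proteins Musashi1 and Musashi2 was recovered from whole pituitary lysate by immunoprecipitation and sequenced. Each lysate held 6 pooled pituitaries of control mice aged 8 to 10 weeks from a sighted FVB strain (FVB.129P2-Pde6b+Tyrc-ch/Ant). It was divided equally between a mixture of antibodies to Musashi1 and Musashi2 (Musashi IP) and control rabbit IgG, so RNA bound by either Musashi protein cannot be told apart. There were 5 Musashi IP libraries and 5 IgG libraries, from 3 lysates of female pituitaries (lysates 2, 5 and 6) and 2 lysates of male pituitaries (lysates 3 and 7).

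Gonadotropes are the endocrine cells of the anterior pituitary that secrete follicle-stimulating hormone and luteinizing hormone, which act on the ovary and testis. Fshb encodes the specific subunit of follicle-stimulating hormone, and Cga the alpha subunit that gonadotropins share with thyroid-stimulating hormone. GnRH from the hypothalamus acts on the receptor encoded by Gnrhr, and activins made in the pituitary raise Fshb transcription. Nr5a1 (steroidogenic factor SF-1), Foxl2 and Gata2 encode transcription factors of the gonadotrope; Gata2 and Foxl2 are also expressed by thyrotropes, and Gata2 by endothelium. Musashi proteins bind short motifs with a UAG core, mainly in 3' UTRs (the untranslated regions after the stop codon), and regulate translation of the mRNA.

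The 3' UTRs of all 6 mRNAs held the Musashi motif searched, which is G or A, then 1 to 3 U, then AGU, read on the sense strand. The sites shown are the matches to this motif in the 3' UTRs searched. UAG cores outside such a match are not shown. Capitals mark the motif, T stands for U, and positions count from the first base after the stop codon in the longest 3' UTR annotated by GENCODE M21.
Fshb, position 646: ggacaggagGTAGTaaccaagct
Fshb, position 729: actgtgaatATTAGTccacattta
Cga, position 179: gggaaatatGTAGTatttaccac
Gnrhr, position 230: tttctctttGTAGTtgggagact
Gnrhr, position 1066: catccctacATAGTggaggaatt
Gnrhr, position 1178: cagtcatgaGTAGTgttttaata
Nr5a1, position 701: ttcacctagATAGTccttggaaa
Nr5a1, position 1348: aattttgcaATTAGTttccagta
Foxl2, position 1367: ttttacaccGTAGTtcagcagct
Gata2, position 1416: ttattttgaATTAGTgacctaagt
None of these sites overlapped another, and the second Nr5a1 site ended 8 nt before the annotated end of its 3' UTR.

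A motif of this kind was common. Of the 13672 tested genes with an annotated 3' UTR of at least 100 nt, 73.2% held at least 1. Their median was 1.51 motifs per kb. Gnrhr held 3 motifs in 1655 nt (1.81 per kb). Fshb held 2 in 1140 nt (1.75 per kb) and Nr5a1 2 in 1361 nt (1.47 per kb). These densities were close to the median. Gata2 held 1 in 1538 nt (0.650 per kb) and Foxl2 1 in 1755 nt (0.570 per kb), both below the median. Cga, with the shortest 3' UTR at 227 nt, held 1, which is 4.41 per kb and above 93.3% of genes. Among genes whose 3' UTR was within 20% of the member's length, 51.2% held as many motifs as Fshb or more, 54.0% as many as Gnrhr, 61.9% as many as Nr5a1, 88.7% as many as Gata2, 91.4% as many as Foxl2 and 23.2% as many as Cga. The shorter UAG core alone occurred 16 times in the 3' UTR of Fshb, 26 in Gnrhr, 15 in Nr5a1, 10 in Gata2, 14 in Foxl2 and 2 in Cga. A match gives letters in a sequence and was not tested as a bound site.

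**Figure D1:**
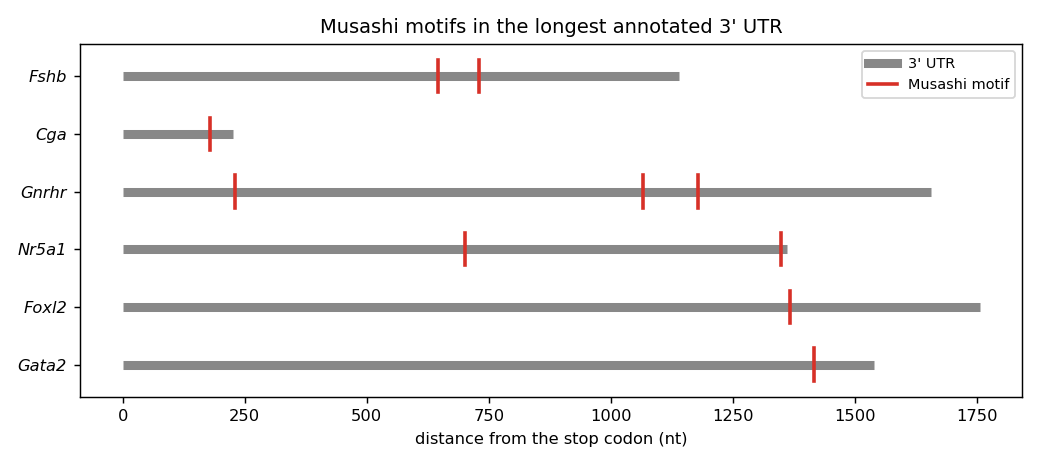
Position of each Musashi motif (red) along the longest annotated 3' UTR (grey) of the 6 mRNAs, as the distance from the stop codon in nt. Gnrhr holds 3 motifs, Fshb and Nr5a1 hold 2 each, and Cga, Foxl2 and Gata2 hold 1 each.

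In Musashi IP over IgG, Fshb, Gnrhr, Nr5a1 and Gata2 were higher and Cga and Foxl2 did not pass the test. Fshb was 4.86-fold higher, Gnrhr 3.06-fold, Nr5a1 2.59-fold and Gata2 1.98-fold. Thus 4 of the 6 members were higher and 0 lower at an adjusted p under 0.05 (edgeR's quasi-likelihood test with the lysate as a block, Benjamini-Hochberg over all genes tested), where 18.5% of all tested genes, and 25.7% of the 14202 tested protein-coding genes, were higher and 8.4% of all tested genes were lower. Musashi IP libraries held 8.74 to 13.0 M counts and IgG libraries 6.67 to 9.35 M. The comparison addresses which pituitary mRNAs were associated with Musashi beyond what came down with IgG from the same lysate. Levels below are CPM, read counts scaled by library size and TMM factors, and are listed for lysates 2, 3, 5, 6 and 7 in that order.

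The hormone subunit Fshb had 65.6, 561, 102, 577 and 850 CPM in Musashi IP, against 36.6, 157, 17.9, 37.3 and 172 CPM in IgG. It was higher in Musashi IP in 5 of 5 lysates, by 1.79-fold, 3.58-fold, 5.67-fold, 15.4-fold and 4.94-fold. The groups overlapped because the male IgG libraries lay above the Musashi IP libraries of female lysates 2 and 5. The log2 fold change was 2.28 ± 0.37 (SE, n = 5 lysates; adjusted p = 0.00492, edgeR, Benjamini-Hochberg), which placed Fshb 56th in order of log2 fold change among the 20550 tested genes. Of all tested genes, 22.4% were likewise higher in 5 of 5 lysates.

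Cga, whose product pairs with that of Fshb, had 148, 217, 128, 109 and 269 CPM in Musashi IP, against 172, 225, 156, 81.8 and 305 CPM in IgG. It was higher in Musashi IP only in lysate 6. The log2 fold change was -0.07 ± 0.12 (SE, n = 5 lysates), with a 95% interval of -0.33 to 0.20 and an adjusted p of 0.681 (edgeR, Benjamini-Hochberg). The upper bound lay below the value of Fshb in each single lysate, the lowest of which was 0.84 on the log2 scale.

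The ratio of Fshb to Cga counts does not depend on how libraries are scaled. It was 0.443, 2.58, 0.799, 5.29 and 3.16 in Musashi IP, against 0.213, 0.697, 0.114, 0.456 and 0.564 in IgG. The ratio was higher in Musashi IP in 5 of 5 lysates, by 2.36 ± 0.94 on the log2 scale (SD), a mean of 5.12-fold. The share of all genes whose ratio to Cga was higher in 5 of 5 lysates was not computed. The exact sign-flip permutation test over the lysates gave p = 0.063 (two-sided), the smallest value that 5 pairs allow.

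The receptor Gnrhr had 76.8, 129, 162, 246 and 168 CPM in Musashi IP, against 44.2, 57.8, 48.3, 39.3 and 50.6 CPM in IgG. All 5 Musashi IP libraries lay above all 5 IgG libraries, as they did for 9.69% of all tested genes. IgG levels varied little, with a mean of 48.0 ± 6.97 CPM, while Musashi IP levels averaged 156 ± 61.7 CPM (SD, n = 5 each). The log2 fold change was 1.61 ± 0.23 (SE, n = 5 lysates; adjusted p = 0.00387, edgeR, Benjamini-Hochberg).

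Among the transcription factors, Nr5a1 had 40.0, 38.6, 49.7, 89.6 and 53.1 CPM in Musashi IP, against 21.2, 25.9, 17.3, 19.1 and 17.3 CPM in IgG. Again all 5 Musashi IP libraries lay above all 5 IgG libraries, and the Musashi IP library of lysate 6 stood above the other 4. The log2 fold change was 1.37 ± 0.22 (SE, n = 5 lysates; adjusted p = 0.00478, edgeR, Benjamini-Hochberg).

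Gata2 had 22.3, 56.5, 22.2, 46.1 and 58.1 CPM in Musashi IP, against 14.3, 40.8, 9.12, 16.9 and 27.0 CPM in IgG. It was higher in Musashi IP in 5 of 5 lysates, while the groups overlapped: the male IgG libraries, at 40.8 and 27.0 CPM, exceeded the Musashi IP libraries of female lysates 2 and 5. The log2 fold change was 0.98 ± 0.16 (SE, n = 5 lysates; adjusted p = 0.00489, edgeR, Benjamini-Hochberg).

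Foxl2 had 18.3, 13.0, 12.6, 7.68 and 9.18 CPM in Musashi IP, against 14.5, 14.5, 7.56, 10.3 and 9.62 CPM in IgG. The groups overlapped throughout, and Foxl2 was higher in Musashi IP in 2 of 5 lysates (2 and 5). The log2 fold change was 0.08 ± 0.18 (SE, n = 5 lysates), with a 95% interval of -0.31 to 0.48 and an adjusted p of 0.730 (edgeR, Benjamini-Hochberg). Foxl2 had the fewest counts of the 6 members, between 58 and 152 per library.

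**Figure D2:**
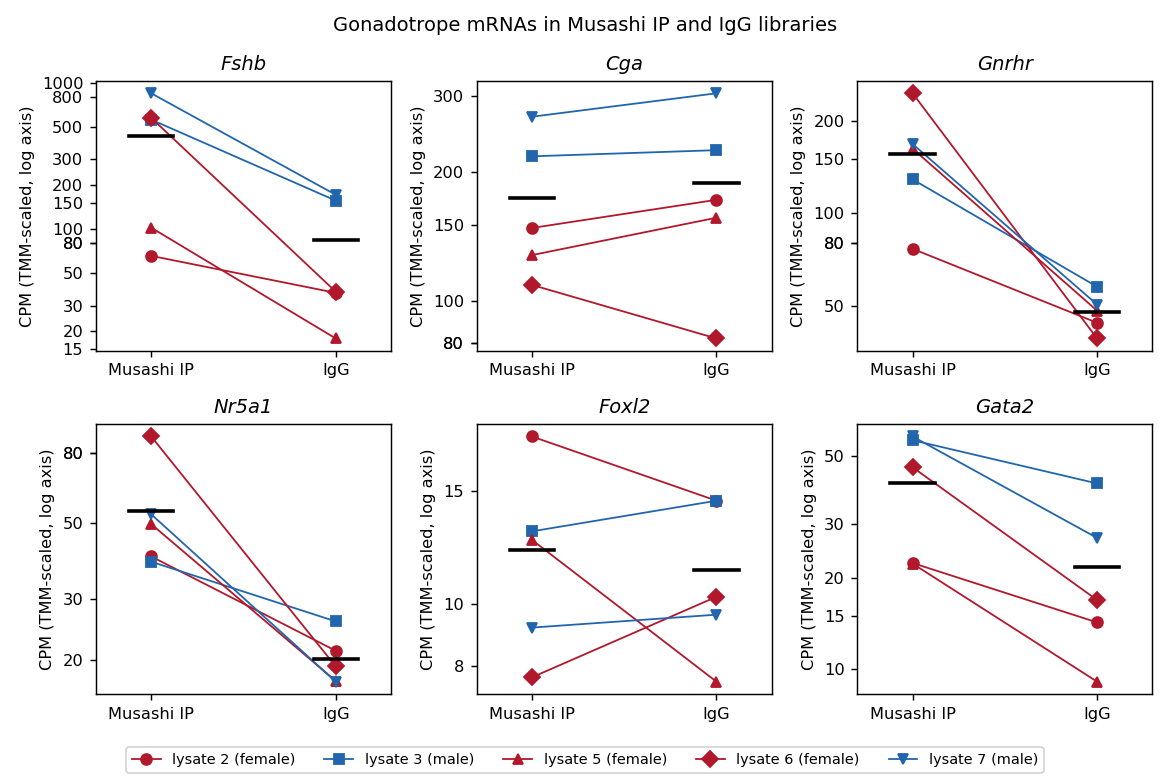
TMM-scaled CPM (log axes) of the 6 mRNAs in Musashi IP and IgG libraries; lines join libraries of the same lysate, red marks female and blue male lysates, and black bars are means of 5 libraries. Every line of Fshb, Gnrhr, Nr5a1 and Gata2 is higher at Musashi IP, while 1 of the 5 lines of Cga and 2 of the 5 lines of Foxl2 are.

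Strand bears on 3 of the members, since the strand setting of the counting is not given in the sources used here. In the annotation, the gene span of Nr5a1, introns included, shares 1867 bases with that of the antisense RNA Nr5a1os. Cga shares 1247 with Platr9 and Foxl2 12 with Foxl2os. How many of these bases are exonic in both genes was not measured. Reads from shared bases cannot be told apart without strand. Nr5a1os had 15 to 27 counts per library in Musashi IP and 15 to 22 in IgG, where Nr5a1 had 333 to 910 counts in Musashi IP and 131 to 191 in IgG. Platr9 had 62 to 160 counts in Musashi IP and 91 to 148 in IgG. Foxl2os had 365 to 617 counts in Musashi IP and 308 to 587 in IgG, more than Foxl2 itself. None of the 3 overlapping RNAs passed the test (log2 fold changes of -0.10, -0.35 and -0.03; adjusted p = 0.740, 0.145 and 0.855, edgeR, Benjamini-Hochberg).

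The order of the members by enrichment was similar from lysate to lysate. The log2 ratio of Fshb exceeded that of Gnrhr in 5 of 5 lysates, by 0.67 ± 0.45 (SD). In lysate 2, however, Nr5a1 (0.91) lay above both Fshb (0.84) and Gnrhr (0.79). Gnrhr and Nr5a1 were neighbours whose log2 ratios differed by less than their spread, at 0.25 ± 0.27, with Gnrhr higher in 4 of 5. Nr5a1 exceeded Gata2 in 5 of 5 lysates, by 0.38 ± 0.27, and Gata2 exceeded Foxl2 in 5 of 5, by 0.90 ± 0.61. Foxl2 and Cga had no fixed order, with Foxl2 higher in 3 of 5.

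The size of the ratio differed widely among lysates. Fshb had log2 ratios of 0.84, 1.84, 2.50, 3.94 and 2.31. Those of Gnrhr were 0.79, 1.15, 1.74, 2.64 and 1.73, those of Nr5a1 0.91, 0.57, 1.51, 2.21 and 1.61, and those of Gata2 0.64, 0.47, 1.27, 1.43 and 1.10. For each of these 4 mRNAs lysate 6 gave the largest ratio and lysate 2 or 3 the smallest. The spread of all genes differed in the same way: the interquartile range of the log2 ratio was 0.54, 0.51, 0.69, 1.35 and 0.68 over all tested genes, and 2.56, 4.05, 8.46, 19.0 and 7.69% of them were over 2-fold higher. The counts of the Musashi IP library were 0.946, 1.31, 1.35, 1.64 and 1.68 times those of its IgG library. The part of depth and of lysate 6 in the sizes of the ratios was not tested beyond leaving each lysate out. Without lysate 6 the 4 members still passed, with Fshb at a log2 fold change of 1.88 (adjusted p = 0.000157, edgeR, Benjamini-Hochberg).

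**Figure D3:**
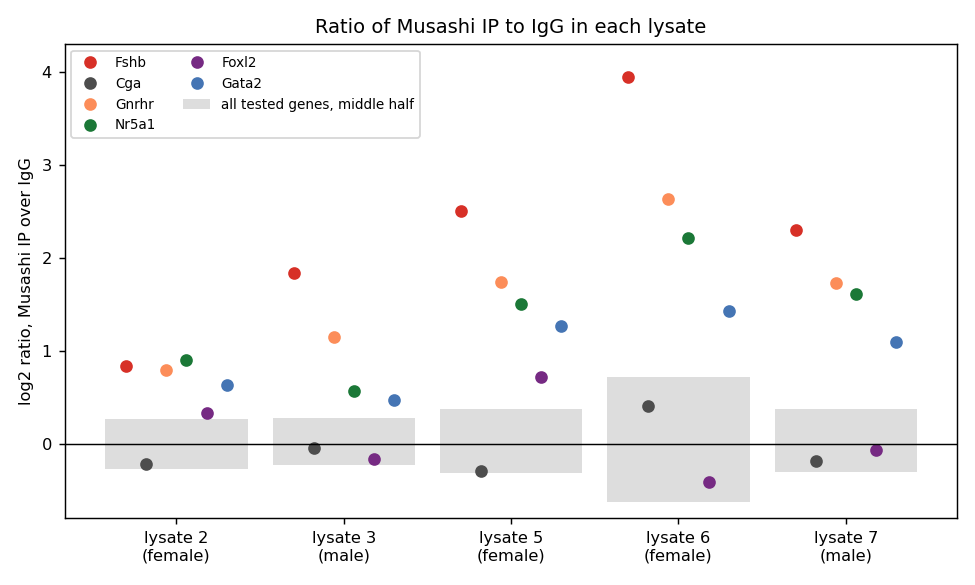
Log2 ratio of Musashi IP to IgG of each member in each lysate, beside the middle 50% of all tested genes (grey boxes). Fshb runs between 0.84 and 3.94, and Cga and Foxl2 stay between -0.41 and 0.72.

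Comparison of levels between genes needs length, so CPM was divided by the annotated exonic length in kb. On this scale Fshb averaged 270 CPM per kb in Musashi IP and 52.5 in IgG, and Cga 183 in Musashi IP and 197 in IgG. Gnrhr averaged 48.9 CPM per kb in Musashi IP and 15.0 in IgG, and Nr5a1 12.8 in Musashi IP and 4.75 in IgG. Gata2 averaged 7.61 CPM per kb in Musashi IP and 4.0 in IgG, and Foxl2 3.73 in Musashi IP and 3.47 in IgG. Fshb and Cga had no fixed order in Musashi IP, where Fshb was higher in 3 of 5 libraries, whereas Cga exceeded Fshb in 5 of 5 IgG libraries. Gata2 and Foxl2 were neighbours with no fixed order in IgG, where Gata2 was higher in 2 of 5 libraries. Nr5a1 and Gata2 had no fixed order in IgG either, with Nr5a1 higher in 3 of 5 libraries. The gene for the specific subunit of luteinizing hormone, Lhb, was listed at 0 counts in all 10 libraries. A count of 0 allows up to 3 counts, or 0.450 CPM in the shallowest library, for counting error alone. What part of this comes from the counting is not given in the sources used here.

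Sex was the other variable of the design. The enrichment of each member was compared between female and male lysates in 1 model with the lysate as a block. Fshb had a log2 fold change, Musashi IP over IgG, of 2.45 ± 0.52 in females and 2.07 ± 0.58 in males (SE, n = 3 female and 2 male lysates). Gnrhr had 1.73 ± 0.32 in females and 1.45 ± 0.38 in males, Nr5a1 1.56 ± 0.29 in females and 1.10 ± 0.35 in males, and Gata2 1.13 ± 0.21 in females and 0.79 ± 0.25 in males. Cga had -0.03 ± 0.17 in females and -0.11 ± 0.20 in males, and Foxl2 0.22 ± 0.24 in females and -0.11 ± 0.29 in males. A female minus male difference passed for 0 of the 6 members and for 0% of the 20550 genes (edgeR, adjusted p = 1 for each member, Benjamini-Hochberg). At an unadjusted p under 0.05 there were 0 members and 187 genes, less than the share of 0.05 of the 20550 genes that no difference would give. The 0 calls therefore do not show equal enrichment in the sexes. The 95% interval of the difference ran from -1.37 to 2.13 for Fshb, -0.85 to 1.42 for Gnrhr and -0.41 to 1.10 for Gata2, so a 2-fold larger enrichment in females lies within each of them. Without female lysate 6 the difference was -0.44 for Fshb, -0.17 for Gnrhr and -0.14 for Cga.

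**Figure D4:**
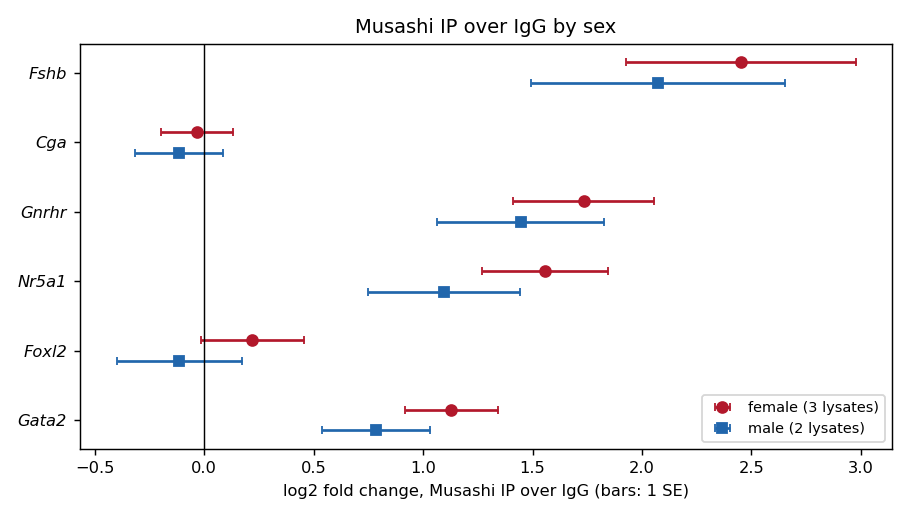
Log2 fold change of Musashi IP over IgG in 3 female (red) and 2 male (blue) lysates, with bars of 1 SE. The female estimate of Fshb lies above the male one by 0.38 ± 0.76 (SE of the difference), no difference of the 6 mRNAs passed the test, and without lysate 6 the differences of Fshb, Gnrhr and Cga turn negative.

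The levels of Fshb and Gata2 themselves differed between the sexes in the IgG libraries. Fshb averaged 30.6 CPM in females and 164 CPM in males, with ranges of 17.9 to 37.3 CPM in females and 157 to 172 CPM in males, and was 5.37-fold lower in females (log2 -2.43 ± 0.26, SE; adjusted p = 0.000330, edgeR, Benjamini-Hochberg, n = 3 female and 2 male libraries). Gata2 averaged 13.4 CPM in females and 33.9 CPM in males and was 2.52-fold lower in females (log2 -1.34 ± 0.28; adjusted p = 0.0201). The share of all genes without overlap between the sexes was not computed, so the separation of the sexes is a description only for Fshb and Gata2. These were 2 of the 6 members, where 4.5% of 20987 genes passed (945 genes, but 172 without lysate 3, 195 without lysate 7 and 1947 with no low-count filter). Cga averaged 137 CPM in females and 265 CPM in males but did not pass (log2 -0.96 ± 0.27; adjusted p = 0.0737). Cga did pass by library totals (adjusted p = 0.0245), with no low-count filter (1.23e-05) and without female lysate 2 or 5 (0.0106 and 0.0394). More genes in all passed with no filter (1947 against 945), so that setting is not evidence particular to Cga. Gnrhr, Nr5a1 and Foxl2 had log2 values of -0.31, -0.17 and -0.16, with adjusted p of 0.420, 0.799 and 0.867. In whole-gland lysate, fewer cells of a type and less RNA per cell cannot be told apart. The call of Gata2 was lost when male lysate 3 or 7 was left out (adjusted p = 0.286 and 0.0845), which leaves a lone male library whose spread is assumed to be that of the females.

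Within Musashi IP no member passed between the sexes, where 2.84% of 21238 genes did (604 genes, and 219 to 999 when each lysate was left out and 1679 with no low-count filter). Fshb averaged 248 CPM in females and 706 CPM in males (log2 -1.57 ± 0.70, female over male; adjusted p = 0.296, edgeR, Benjamini-Hochberg). Gata2 averaged 30.2 CPM in females and 57.3 CPM in males (log2 -0.96 ± 0.30; adjusted p = 0.142) and Cga 128 CPM in females and 243 CPM in males (log2 -0.93 ± 0.25; adjusted p = 0.0897). These 3 members had unadjusted p under 0.05, at 0.0473, 0.00974 and 0.00407. By library totals Gata2 (adjusted p = 0.0366) and Cga (0.0409) passed, and with no low-count filter, where 1679 genes passed, all 3 did. Cga also passed without female lysate 2 (0.0305). The Musashi IP library of female lysate 6 held 577 CPM of Fshb, against 65.6 and 102 CPM in the other female libraries, and 46.1 CPM of Gata2, against 22.3 and 22.2 CPM. Without that lysate Fshb and Gata2 passed, with log2 values of -3.06 for Fshb (adjusted p = 0.000438) and -1.34 for Gata2 (adjusted p = 0.00559).

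The members varied together in part. Over the 10 libraries, log2 CPM correlated at r = 0.967 between Fshb and Gata2, 0.955 between Gnrhr and Nr5a1, and 0.774 between Fshb and Gnrhr. Foxl2 correlated with the other 5 between -0.20 and 0.09. The log2 ratios of the 5 lysates correlated at 0.987 between Fshb and Gnrhr and 0.964 between Nr5a1 and Gata2. These are descriptions: the libraries share antibody, sex and lysate, which set much of any such value.

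The genes most like each member over the 10 libraries were taken from 10873 candidates of at least 8 CPM on average. For Fshb they were Nlgn3, a postsynaptic adhesion protein gene (r = 0.984), Etv6, a transcriptional repressor gene (0.982), and Ogfrl1 (0.978). For Gata2 they were Mat1a (0.982), Rhobtb2 (0.977) and Fkbp5 (0.970), and for Cga Cep126 (0.963) and the transcription factor gene Cebpd (0.961). Gnrhr was most like the adhesion molecule gene Cadm1 (0.991), Ccdc91 (0.988) and the sterol transporter gene Abcg1 (0.988). Nr5a1 was most like the sphingomyelinase gene Smpd3 (0.993), Tmem184a (0.993) and Atxn1l (0.992). Foxl2 had the lowest values, with Sh2b2 (0.932), Ccdc61 (0.928) and Zfp839 (0.919).

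The other genes of the pathways around the members were read from lists, each beside the median of all tested genes, a log2 fold change of -0.07, and of tested protein-coding genes, 0.09. Of 47 genes of GnRH receptor signalling, 18 were higher in Musashi IP (38.3%, against 18.5% of all tested genes and 25.7% of tested protein-coding genes) and 1 lower, with a list median of 0.32. Scaling to library totals, which moves the median of all genes by -0.18 on the log2 scale, gave 16 higher and 7 lower. The G protein subunits that couple the receptor to phospholipase C were both higher: Gna11 had 217 ± 136 CPM in Musashi IP and 51.2 ± 8.60 CPM in IgG, and Gnaq 199 ± 77.3 CPM in Musashi IP and 85.5 ± 6.33 CPM in IgG (SD, n = 5 each; log2 1.90 ± 0.28 and 1.14 ± 0.20, SE). Rgs2, which speeds the switching off of such G proteins, was at log2 1.48 ± 0.25, and the kinase gene Src at 1.12 ± 0.16. The largest adjusted p of these 4 was 0.00590 (edgeR, Benjamini-Hochberg). The phospholipase C genes Plcb1 (log2 -0.13), Plcb3 (-0.42) and Plcb4 (-0.12) did not pass. The count of higher genes of this list was 10 without the replicate block and 11 without lysate 7.

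Of 17 tested genes of activin, inhibin and follistatin control, 9 were higher (52.9%) and 0 lower, with a median of 0.45 (7 higher and 1 lower by library totals). Among all tested genes 18.5% were higher, and among tested protein-coding genes 25.7%. The activin receptor gene Acvr1b had 87.2 ± 34.0 CPM in Musashi IP and 33.7 ± 4.78 CPM in IgG (log2 1.31 ± 0.20; adjusted p = 0.00420, edgeR, Benjamini-Hochberg). Inhbb, which encodes the activin B subunit, was at log2 1.24 ± 0.22, the BMP receptor gene Bmpr1a at 0.94 ± 0.21, and Fstl3, which encodes an activin-binding protein, at 1.62 ± 0.22 at low levels of 5.03 ± 2.45 CPM in Musashi IP and 1.64 ± 0.87 CPM in IgG. Fst had too few counts to be tested.

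Of 14 other tested gonadotrope transcription factors 3 were higher (21.4%, against 18.5% of all tested genes and 25.7% of tested protein-coding genes) and 0 lower, with a median of 0.35. This share lies between those of the backgrounds, and the count was 7 with no low-count filter. They were the pituitary homeobox gene Pitx1, with 109 ± 45.9 CPM in Musashi IP and 37.9 ± 6.99 CPM in IgG (log2 1.46 ± 0.21; adjusted p = 0.00382, edgeR, Benjamini-Hochberg), the homeobox gene Six6 (1.24 ± 0.25; adjusted p = 0.00896), and Ctnnb1, which encodes beta-catenin (0.48 ± 0.13; adjusted p = 0.0292). Ctnnb1 lost its call without the replicate block (adjusted p = 0.0883), with length and GC offsets (0.101) and when lysate 3, 5 or 7 was left out.

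Of 5 tested steroid receptors 4 were higher (80%) and 0 lower, with a median of 0.70. The background shares of higher genes were 18.5% of all tested genes and 25.7% of tested protein-coding genes. The estrogen receptor gene Esr1 had 697 ± 370 CPM in Musashi IP and 305 ± 41.1 CPM in IgG (log2 1.05 ± 0.18; adjusted p = 0.00586, edgeR, Benjamini-Hochberg). The progesterone receptor gene Pgr was at log2 0.70 ± 0.14 and the glucocorticoid receptor gene Nr3c1 at 0.55 ± 0.17. Without the replicate block 1 of the 4 passed, and Nr3c1 lost its call also with DESeq2 size factors (adjusted p = 0.0549), with sex as a term in place of the lysate (0.0589) and without lysate 3, 5 or 7.

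Of 16 genes of secretion and of other receptors 6 were higher (37.5%) and 0 lower, with a median of 0.39 (6 higher and 1 lower by library totals). Beside this, 18.5% of all tested genes and 25.7% of tested protein-coding genes were higher. Rab27a, a small GTPase gene of granule exocytosis, had 347 ± 168 CPM in Musashi IP and 85.0 ± 7.86 CPM in IgG (log2 1.91 ± 0.24; adjusted p = 0.00336, edgeR, Benjamini-Hochberg). Its relative Rab27b was at log2 1.07 ± 0.14, the adiponectin receptor gene Adipor2 at 1.65 ± 0.23 and the PACAP receptor gene Adcyap1r1 at 1.47 ± 0.22. Of the 41 genes called in the 5 lists, 23 kept their call in all 14 alternative settings.

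**Figure D5:**
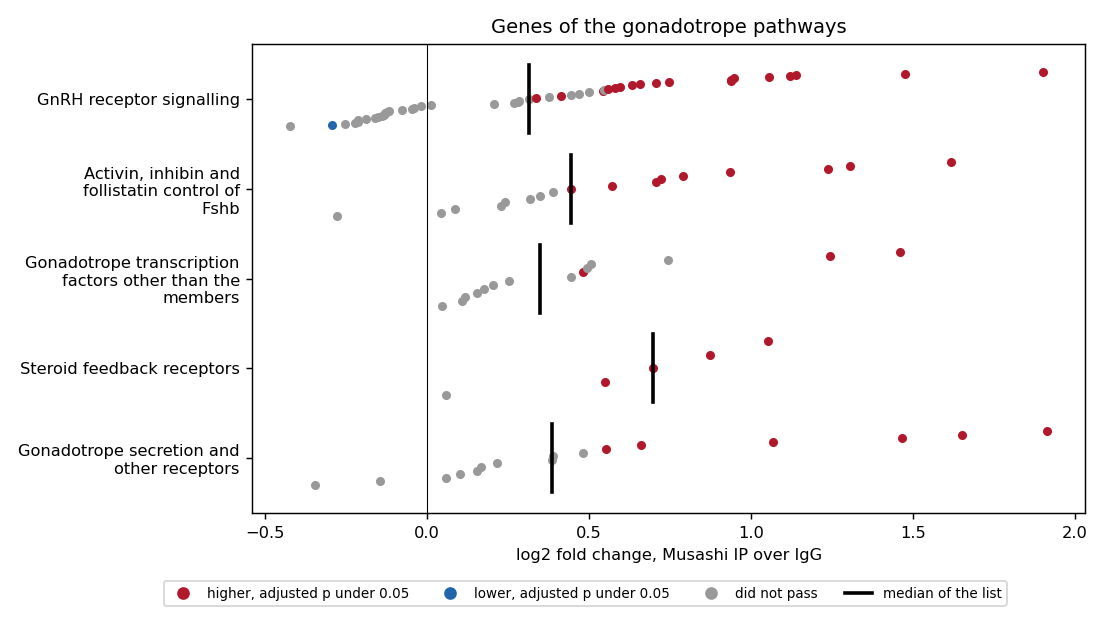
Log2 fold change of Musashi IP over IgG of each tested gene in 5 lists (members left out), with red for higher and blue for lower at an adjusted p under 0.05, grey for genes that did not pass, and a black line at each list's median. The medians lie between 0.32 and 0.70, and 1 gene is blue.

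Many of the listed pathway genes are expressed by other cells of the gland too, and markers of other cells also moved. As background, 18.5% of all tested genes were higher and 8.4% lower, and 25.7% of tested protein-coding genes were higher. Summed CPM of 8 tested gonadotrope markers ran from 434 to 1486 in Musashi IP and from 254 to 644 in IgG, with 4 higher (the 4 members) and 0 lower. Of the others, Tgfbr3l (log2 -0.28) and Foxp2 (0.49) did not pass, nor did Cga and Foxl2. Of 4 thyrotrope markers, Dio2 (log2 1.79) and Trhr (0.51) were higher, while the hormone mRNA Tshb (-0.28) and Pou1f1 (0.22) did not pass. Their sum ran from 331 to 582 CPM in Musashi IP and 239 to 303 CPM in IgG. Within that sum Pou1f1 averaged 229 CPM in Musashi IP, Dio2 154 CPM and Tshb 26.4 CPM. Higher too were Pappa2, 1 of 3 somatotrope markers, Akr1c14, Angpt1 and Drd2 of 4 lactotrope markers, Avpr1b, Pax7 and Crhr1 of 5 corticotrope and melanotrope markers, and Sox9 of 4 stem cell markers. The hormone mRNAs of these endocrine cells, Gh (log2 -0.19), Prl (0.04) and Pomc (0.04), did not pass. Of 7 endothelial markers 0 were higher or lower (sums of 62.7 to 139 CPM in Musashi IP and 74.9 to 335 CPM in IgG), and likewise 0 of 8 mural and fibroblast markers and the 1 tested posterior lobe marker. Ptprc and Csf1r of 5 immune markers and Hbb-bs, Hbb-bt and Hba-a1, all 3 tested erythroid markers, were lower. Without the replicate block 0 immune and 0 erythroid markers passed, and by library totals 1 endothelial, 2 mural and fibroblast, 3 immune, 1 gonadotrope and 1 thyrotrope marker were lower. Higher thyrotrope markers numbered 1 with DESeq2 size factors, with library totals and without the block. The part of other cell types in the ratios of Gata2 and Cga was not tested.

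Leaving the lysate pairing out of the model changed some member calls. With no replicate block, Fshb stood at log2 2.36 (adjusted p = 0.0649, edgeR, Benjamini-Hochberg) and Gata2 at 0.93 (adjusted p = 0.152), so 2 of the 6 members passed. Gnrhr and Nr5a1 kept their calls there.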

How the data were processed

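The authors deposited raw read counts per Ensembl gene, in whole numbers and with no normalization, for 5 Musashi IP and 5 IgG libraries of mouse pituitary. Libraries were made with a stranded total RNA kit, per the labels. Per the submitters' processing notes, the tools were FastQC 0.11.8, Trimmomatic 0.39 and STAR 2.7.1a, and the genome GRCm39. Not given in the sources used here are the counting program, gene annotation, strand setting and handling of multiply mapped reads. Of the 6 immunoprecipitation occasions in the protocol (3 per sex), 1 male occasion was not analysed here.

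Library totals were 6.67 to 13.0 M, and 1 count is worth 0.150 CPM in the shallowest. Counts are not independent molecules, and intervals and limits from counts cover counting error only. Symbols, exonic lengths and 3' UTR sequences came from GENCODE M21 on GRCm38 by gene ID (94.1% of IDs matched). Since the counts are on GRCm39, no genome coordinates are given.

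Counts were tested in R 4.3.3 with edgeR 4.0.16 (filterByExpr, TMM scaling, quasi-likelihood test, Benjamini-Hochberg at 0.05 over all genes tested), blocked by lysate, which left 4 residual degrees of freedom. The sex by antibody term had 3. Females and males were compared within IgG and within Musashi IP without a block (3 residual degrees of freedom each). An SE is the log2 fold change divided by the square root of F. Log2 ratios and likeness used a prior count of 2. The fits were tested on simulated data. Alternatives used limma 3.58.1, DESeq2 1.42.0, other scalings and filters, a length and GC correction, no block, and leaving out each lysate. P-values rest on the spread among these lysates, which in the blocked test is that of the Musashi IP to IgG ratio. The quasi-likelihood test moderates variances across genes, so its p-values use more than the residual degrees of freedom given.

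The protocol splits each lysate between the antibodies, so the lysate number pairs libraries. Deviations from group means of same-numbered libraries correlated at 0.523, 0.679, 0.602, 0.186 and 0.778 for lysates 2, 3, 5, 6 and 7. The IgG library of lysate 6 correlated better with the Musashi IP library of a different lysate (0.415). Named were the members, up to 4 called genes per pathway list and direction, the 3 genes most like each member, and markers that passed; a few genes that this rule names are not reported here. Members and lists were chosen with earlier results of these data known.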

Additional observations from a re-analysis of the deposited data

Results flagged for a closer look

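Of 18 sets of values of the members tested for a sample far from the others, 1 held such a sample. Nr5a1 had 89.6 CPM in the Musashi IP library of lysate 6, against 40.0, 38.6, 49.7 and 53.1 CPM in those of lysates 2, 3, 5 and 7. Its gap to the nearest library was 0.716 of the range of the 5 libraries, just over Dixon's critical value of 0.71. Chance alone puts about 1 in 20 sets past that value. Without lysate 6, Nr5a1 stood at a log2 fold change of 1.15 (adjusted p = 0.000592, edgeR, Benjamini-Hochberg).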

How the results depend on the processing

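Fshb, Gnrhr, Nr5a1 and Gata2 stayed higher in Musashi IP in all 14 alternatives run and kept their calls in each, except Fshb and Gata2 with no replicate block (2.36 and 0.93), where 2 members passed. Sex as a term in place of the lysate, chosen after seeing the data, kept all 4 calls. The sign of Foxl2 turned with library totals (-0.085), a 2 CPM filter (-0.0075) and the length and GC correction (-0.084), and that of Cga with the last (0.18). Leaving out each lysate gave -0.014 to 0.20 for Foxl2 and -0.18 to 0.042 for Cga. Over all genes, 2407 were higher with no replicate block, and 2288 to 4188 without a lysate. Lower genes numbered 4068 with library totals, 3214 with the 2 CPM filter, 176 with no replicate block, 1057 with DESeq2, 670 with the sex term, and 182 to 2100 without a lysate. Between the sexes within IgG, 1 to 3 members passed without a lysate. Within Musashi IP, 2 passed with library totals, 3 with no low-count filter, and 0 to 2 without a lysate.

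Values between the sexes that missed the threshold also changed sign. With library totals these were the difference of Cga (-0.023) and Gnrhr within Musashi IP (-0.11). Leaving out each lysate, the female minus male difference ran from -0.44 to 1.20 for Fshb, -0.14 to 0.24 for Cga, -0.17 to 0.75 for Gnrhr and -0.049 to 0.91 for Nr5a1. Within IgG, female over male ran from -0.43 to 0.15 for Nr5a1 and -0.43 to 0.16 for Foxl2. Within Musashi IP it ran from -0.31 to 0.40 for Gnrhr, -0.016 to 0.59 for Nr5a1 and -0.18 to 0.50 for Foxl2. The causes were not tested. There were 2 male lysates in every comparison of the sexes.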
